A study of Mus musculus with 12 samples.

Results

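The genes described here encode proteins that reseal the muscle cell membrane (the sarcolemma) after injury and proteins that build caveolae, the small flask-shaped pits of that membrane. They are the ferlins Dysf and Fer1l5, the repair factor Trim72, the anoctamin Ano5, the calpain Capn3, the caveolins Cav1 and Cav3, the caveolar coat protein Ptrf, and the membrane-remodeling ATPases Ehd1 and Ehd2. They were chosen by gene symbol, and all 10 were found among the 23923 genes in the tables. RNA came from the tibialis anterior, a fast-twitch muscle of the lower leg, of 12 mice aged 6 weeks on a C57BL6/J;129S1/SvImJ background, with 1 library per mouse. The 6 controls were Myf6 cre/+; Smyd1 flox/+, so that 1 Smyd1 allele could still be deleted in them. The 6 Smyd1 conditional knockouts (CKOs) were Myf6 cre/+; Smyd1 flox/-. The cross described in the methods also gives every mouse 1 copy of a Rosa26 YFP reporter. The authors state that their experiments after the first histology used male tissue only. Cre is expressed from the Myf6 gene and acts in muscle fibers from about the time of birth, so other cell types of the muscle keep their Smyd1 alleles as inherited, which in CKOs include 1 null allele. Smyd1 itself encodes a methyltransferase of striated muscle.

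When the sarcolemma tears, calcium enters and vesicles fuse with one another and with the membrane to close the gap. Trim72 is an early organizer of this patch, dysferlin (Dysf) promotes the calcium-triggered fusion, and Ano5 belongs to a family of calcium-activated channels and lipid scramblases. Calpains are calcium-dependent proteases, and Capn3 is the form most typical of skeletal muscle. Caveolin 3 forms caveolae in muscle fibers, whereas caveolin 1 forms them in endothelial cells, adipocytes and many other cells. Ptrf, also named Cavin1, coats caveolae in both settings, and Ehd2 sits at their necks. In humans, loss of dysferlin, anoctamin 5, calpain 3 or caveolin 3 causes inherited muscle disease.

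Expression was measured as FPKM, sequenced fragments scaled by transcript length and by library size. Dysf was the only member past the threshold in the comparison of all 12 mice. It averaged 6.20 ± 0.944 FPKM in the control group and 8.41 ± 0.574 FPKM in the CKO group (SD, n = 6 each), a 1.36-fold difference of means. The averages of Trim72, Cav3 and Ano5 were 1.20 to 1.27 times as high in CKOs, none of them past the adjusted threshold with all mice included. Without control 1, a mouse with high levels of connective tissue genes, Trim72 passed as well. Cav1, Ptrf, Ehd1, Ehd2 and Capn3 passed the adjusted threshold in neither comparison, and Fer1l5 was close to the lower limit of the measurement. With all mice the values of every member except Dysf overlapped between the groups. The members' FPKM in each mouse are plotted together.

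**Figure D1:**
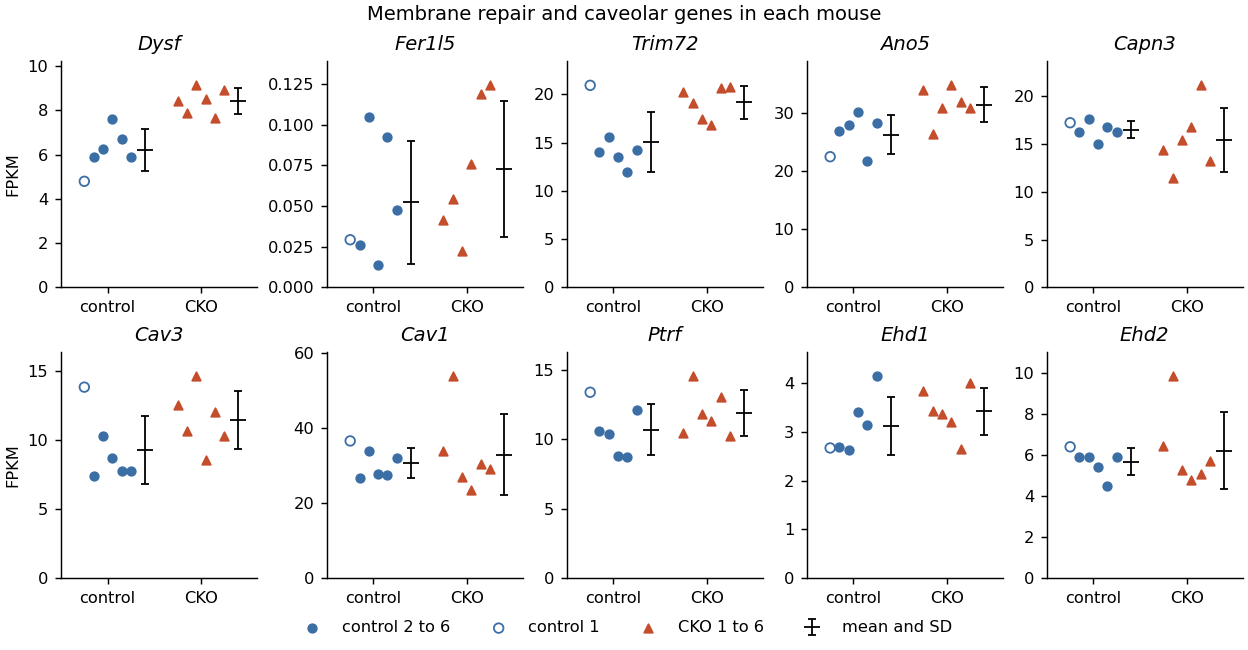
FPKM (vertical axes, linear and starting at 0) of the 10 genes, 1 panel per gene, in the 6 controls (blue circles, control 1 open) and the 6 CKOs (red triangles), with the mean and SD of each group in black. For Dysf all 6 CKOs lie above all 6 controls, for Trim72 they lie above every control except control 1, and for Cav1 and Ehd2 the mouse CKO 2 lies far above the other CKOs.

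The groups were compared with limma on log2(FPKM + 0.1), which understates the change of low genes, with Benjamini-Hochberg adjustment over 12695 genes. Of the 10 members, 9 passed the filter on low values (at least 0.1 FPKM in at least 6 mice) and Fer1l5 did not. Among the 9, 1 was higher in the CKO at an adjusted p below 0.05, where 2.02% of all tested genes were, and none were lower, where 0.268% were. At an unadjusted p below 0.05, 3 were higher (Dysf, Trim72 and Ano5), against 18.1% of all genes, and none were lower, against 1.76%. The median log2 fold change of the 9 was 0.16, beside 0.18 over all tested genes, of which 77.9% had positive values. Median-ratio scaling, which sets the typical gene equal between mice, brought the median of the 9 to -0.024. After this scaling none of the 9 passed the adjusted threshold in limma (0.764% of genes were higher and 0.709% lower), and at an unadjusted p below 0.05 none were higher, beside 6.62% of all genes, and 1, Capn3, was lower, beside 7.44%. A rise reported below is therefore a rise in FPKM as deposited. Because whole muscle was sequenced, fewer cells of a type and less RNA per cell cannot be told apart in any of these values.

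Smyd1, the targeted gene, was 37.4 ± 5.64 FPKM in the control group and 34.1 ± 4.36 FPKM in the CKO group (SD, n = 6 each) (limma, adjusted p = 0.545). One value per gene sums over exons, and the sources used here do not say which part of Smyd1 is removed, so this value does not check the genotype. As a check that skeletal muscle was sequenced, 8 genes listed for fast muscle, such as Myh4 and Myh1, summed to between 22842 and 38523 FPKM in every mouse. This sum cannot tell the tibialis anterior from other muscles with fast fibers. The relative depth of the libraries, taken from the smallest steps in FPKM, ran from 0.984 to 1.77 times that of control 1. Control 1 stood apart, since 6 fibroblast genes summed to 714 FPKM there and to between 184 and 236 FPKM in the other controls, and 6 macrophage genes to 36.1 FPKM against at most 17.2 FPKM. It had the highest value among controls for 5 members (Trim72, Cav1, Cav3, Ptrf and Ehd2) and the lowest for Dysf. Each comparison of a member is therefore given with and without this mouse. Slow fiber genes also differed between mice, their sum being 301, 140 and 82.3 FPKM in CKO 6, CKO 1 and CKO 3 and at most 51.7 FPKM in the other 9. Between the groups, 6 of the 7 slow fiber genes were higher and 0 lower at an unadjusted limma p below 0.05. Of all tested genes, 18.1% and 1.76% were. The median log2 fold change of the 7 was 1.99, and 0 passed adjustment. Myl3 went the other way (log2 fold change -0.52) and had the highest mean log2 level of the 7 in controls, at 4.40. Satellite cell genes summed to 5.73 to 10.6 FPKM in controls and 8.31 to 15.1 FPKM in CKOs. Most of that sum was Sdc4, with a mean log2 level of 2.70 in controls, against 0.0044 or less for the other genes of the list. The part that these differences between mice play in the members' values was not tested.

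Dysferlin is a large membrane protein with a row of calcium-binding domains. The Dysf level in controls was 4.79 FPKM in the lowest mouse (control 1), 6.09 FPKM at the median and 7.62 FPKM in the highest (control 4). In CKOs the lowest was 7.64 FPKM (CKO 5), the median 8.46 FPKM and the highest 9.13 FPKM (CKO 3). All 6 CKOs therefore lay above all 6 controls, although CKO 5 and control 4 nearly met. Of all tested genes, 2.23% separated the groups completely in this direction and 0.189% in the other. The log2 fold change was 0.45 ± 0.110 (SE, limma, adjusted p = 0.0477), with a 95% interval from 0.21 to 0.68. The exact permutation test over all assignments of the mice gave p = 0.00216 (two-sided), the smallest it can give for 6 against 6. Without control 1, the lowest of the 12 values, the log2 fold change was 0.38 ± 0.0957 (SE, limma, adjusted p = 0.0275).

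The call for Dysf stood close to its threshold. Over 21 alternative treatments of the data its log2 fold change stayed positive, between 0.14 and 0.51, while limma's adjusted p ran from 0.0167 to 0.452 and passed in 6 of them. Among the omissions of single mice it passed without control 1, control 4 or CKO 5 and failed without any of the other 9. After median-ratio scaling the log2 fold change was 0.26 ± 0.130 (SE, limma, adjusted p = 0.391). The 3 mice with the most slow fiber RNA were among the 4 highest for Dysf, at 9.13 FPKM in CKO 3, 8.90 FPKM in CKO 6 and 8.43 FPKM in CKO 1. The other CKOs were at 7.64 to 8.49 FPKM. The part of slow fiber RNA in the Dysf values was not tested.

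Trim72 encodes a muscle E3 ubiquitin ligase that gathers at injured membrane. In controls its lowest value was 11.97 FPKM, its median 14.1 FPKM and its highest 20.9 FPKM, in control 1. In CKOs the lowest was 16.8 FPKM, the median 19.7 FPKM and the highest 20.7 FPKM. Control 1 lay above every CKO, and the other controls, at 11.97 to 15.6 FPKM, lay below every CKO. With all mice the log2 fold change was 0.37 ± 0.123 (SE, limma, adjusted p = 0.126; exact permutation test, p = 0.0238). Without control 1 it was 0.46 ± 0.0943 (SE, limma, adjusted p = 0.0106), and the exact permutation test without it gave p = 0.00216, again the smallest possible. Leaving out control 1 also raised the share of all tested genes that were higher at the adjusted threshold to 8.40% and the share that separated the groups to 6.10%, and 2 of the 9 tested members, Dysf and Trim72, met both. None were lower, beside 0.544% at the adjusted threshold, and none lay wholly below the controls, beside 0.354%. At an unadjusted p below 0.05 there were 4 higher (Dysf, Trim72, Cav3 and Ano5) and none lower, beside 27.0% and 1.80% of all genes. Fibroblast genes moved with the same comparison: 5 of 6 passed the adjusted threshold, with sums of 253 to 422 FPKM in CKOs, and their part in these values was not tested. With scaling and without control 1, the log2 fold change of Trim72 was 0.23 ± 0.0825 (SE, limma, adjusted p = 0.152). In that treatment 1 member, Trim72, was higher and 1, Capn3, lower at an unadjusted p below 0.05, beside 8.66% and 9.03% of all genes, and none passed the adjusted threshold, beside 1.42% and 1.43%.

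Dysf passed the threshold with all mice and Trim72 without control 1, and the sequence before their start sites is shown for that reason, as RefSeq annotates it on GRCm38.p6. Each run covers 250 bases on the plus strand. Capitals mark E-boxes, the pattern CANNTG, which where present on 1 strand is also present on the other. Myogenic factors of the MyoD family bind some E-boxes, and the middle letters of the pattern were not considered here.
Dysf, chr6:84008348-84008597: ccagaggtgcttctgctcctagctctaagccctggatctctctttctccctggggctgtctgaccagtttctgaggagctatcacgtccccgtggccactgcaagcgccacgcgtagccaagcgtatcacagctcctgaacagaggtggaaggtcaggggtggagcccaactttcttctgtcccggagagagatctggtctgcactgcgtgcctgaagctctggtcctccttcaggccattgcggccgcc
Trim72, chr7:128004128-128004377: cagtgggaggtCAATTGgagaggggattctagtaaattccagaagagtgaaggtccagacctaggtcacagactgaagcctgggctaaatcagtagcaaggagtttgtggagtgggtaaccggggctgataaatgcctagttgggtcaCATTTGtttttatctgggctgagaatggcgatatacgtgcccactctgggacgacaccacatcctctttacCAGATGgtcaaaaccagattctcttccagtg
The Trim72 run holds 3 E-boxes, a number that 12.2% of 32817 promoter windows of this length reach or exceed. The Dysf run holds none, and neither does the window before a second annotated start of Dysf, whereas 66.2% of all windows hold at least 1. These letters are a description of the windows and were not tied to any binding data.

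Fer1l5 encodes a close relative of dysferlin that has been linked to myoblast fusion. It was listed at 0.0135 to 0.104 FPKM in controls and 0.0225 to 0.124 FPKM in CKOs. Multiplied by relative depth, its 12 values were whole multiples of 1 step within 0.02, and read as fragments they came to 2, 2, 9, 1, 8 and 5 in controls 1 to 6 and to 5, 4, 2, 8, 8 and 10 in CKOs 1 to 6. The total was 27 fragments in controls and 37 in CKOs, so a difference between the groups was not detectable at this depth (exact permutation test, p = 0.366, and p = 0.511 without control 1). On the log2 scale the difference was 0.18 (limma without the filter, adjusted p = 0.658). Fer1l5 overlaps Lman2l on the opposite strand in GENCODE M21, and since the sources used here do not state that counting used strand, its few fragments could come from either gene. Of the other ferlins, Myof was at 0.644 to 1.55 FPKM in controls and 0.809 to 1.30 FPKM in CKOs (limma, adjusted p = 0.591), Otof did not exceed 0.0515 FPKM in any mouse, and Fer1l4 was listed at 0 in all 12. Fer1l6 was not analysed here. Of the 5 ferlins read, Dysf had the highest FPKM in every mouse.

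Ano5 was among the most abundant members, at 26.3 ± 3.39 FPKM in the control group and 31.5 ± 2.97 FPKM in the CKO group (SD, n = 6 each). Controls ran from 21.8 through a median of 27.5 to 30.2 FPKM, and CKOs from 26.4 through a median of 31.4 to 34.8 FPKM. CKO 2 lay within the range of the controls and the other 5 CKOs above it. The log2 fold change was 0.26 ± 0.105 (SE, limma, adjusted p = 0.184; exact permutation test, p = 0.0238), and it was 0.22 without control 1 and 0.076 after median-ratio scaling. With both it turned to -0.012.

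Capn3 was the member whose average was lower in CKOs, at 16.5 ± 0.931 FPKM in the control group and 15.4 ± 3.35 FPKM in the CKO group (SD, n = 6 each). Controls kept within 14.9 to 17.6 FPKM with a median of 16.5 FPKM. The CKOs spread on both sides of them, from 11.5 FPKM in CKO 2 through a median of 14.9 FPKM to 21.1 FPKM in CKO 5. Whether the groups differed in spread was not tested. Limma gave a log2 fold change of -0.13 ± 0.125 (SE, limma, adjusted p = 0.588), with a 95% interval from -0.39 to 0.14. Without control 1 it was -0.11 (limma, adjusted p = 0.583), and with median-ratio scaling it was -0.31 (limma, adjusted p = 0.258). The annotation places Ganc, at 2.94 to 3.84 FPKM in these mice, on the same strand across part of Capn3, so fragments of the shared stretch are uncertain.

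Cav3, the caveolin of muscle fibers, was 9.29 ± 2.46 FPKM in the control group and 11.5 ± 2.096 FPKM in the CKO group (SD, n = 6 each). Control 1 had 13.8 FPKM, and the other controls ran from 7.41 to 10.3 FPKM. In CKOs the lowest was 8.58 FPKM in CKO 4, the median 11.3 FPKM and the highest 14.6 FPKM in CKO 3. With all mice only CKO 3 exceeded the highest control, and without control 1 all but CKO 4 did. On the log2 scale the difference was 0.32 ± 0.160 (SE, limma, adjusted p = 0.285; exact permutation test, p = 0.0952). Without control 1 it was 0.44 ± 0.133 (SE, limma, adjusted p = 0.0534; exact permutation test, p = 0.0152), still not past the threshold.

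Cav1, the caveolin of endothelial and many other cells, had the highest average FPKM of the members in both groups, at 30.7 ± 4.02 FPKM in the control group and 32.9 ± 10.8 FPKM in the CKO group (SD, n = 6 each). The controls ran from 26.6 through a median of 29.8 to 36.5 FPKM. The CKOs ran from 23.5 through a median of 29.7 FPKM, and 5 of the 6 were at 33.8 FPKM or less, whereas CKO 2 had 53.8 FPKM. The log2 fold change of 0.057 ± 0.165 (SE, limma, adjusted p = 0.870) became 0.11 without control 1, -0.095 without CKO 2 and -0.13 after median-ratio scaling. Its 95% interval, from -0.29 to 0.41, leaves room for a change in either direction.

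Ehd2 stood apart in the same mouse, at 9.87 FPKM in CKO 2 and 4.81 to 6.47 FPKM in the other CKOs. Controls were at 4.52 to 6.41 FPKM. Its log2 fold change was 0.090 ± 0.157 (SE, limma, adjusted p = 0.773), and it was 0.13 without control 1, -0.051 without CKO 2 and -0.095 after median-ratio scaling. Among 8 endothelial genes, Cdh5 (VE-cadherin) and Pecam1 were also highest in CKO 2, at 15.5 and 13.6 FPKM, against at most 10.98 and 12.5 FPKM in the other 11 mice. The summed endothelial level was 55.6 FPKM in CKO 2, 34.3 to 45.6 FPKM in the other CKOs and 34.6 to 47.9 FPKM in controls. That sum includes Cdh5 and Pecam1, which were at 9.82 and 10.6 FPKM in control 3, the control with the highest sum. The rest of the sum was higher in control 3 than in CKO 2. Over the list, 0 of the 8 genes passed a limma p below 0.05 in either direction, adjusted or not, and each was detected in every mouse. The 8 adipocyte genes, of which Plin1, Lep and Retn were at 0 in some mice, summed to 212 FPKM in CKO 2 and at most 133 FPKM in the other CKOs, but control 1 had 308 FPKM. Most of this sum was Fabp4, with a mean log2 level of 7.15 in controls, against -0.079 or less for the other tested genes. Fabp4 had a log2 fold change of -0.20, while 5 of the 6 tested adipocyte genes were positive, beside 77.9% of all tested genes. The part of endothelial cells and adipocytes in the Cav1 and Ehd2 values was not tested. Both genes are plotted against the summed endothelial level.

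**Figure D2:**
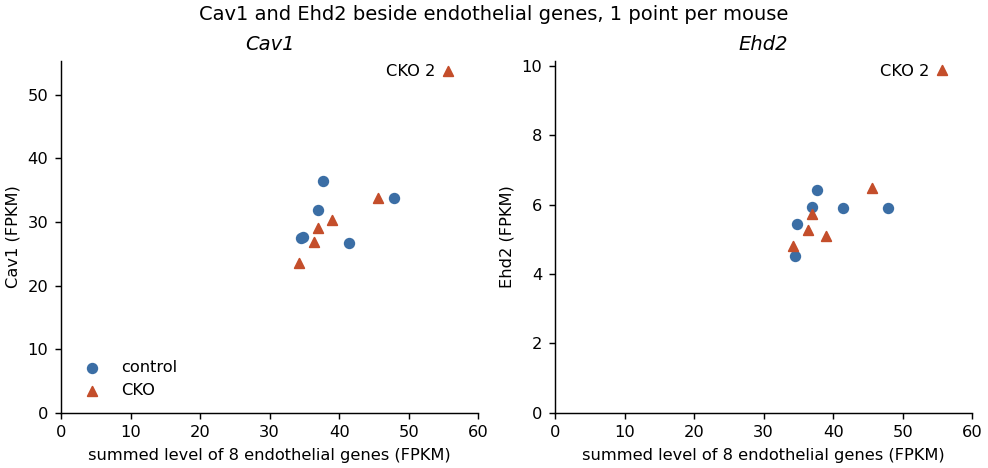
FPKM of Cav1 (left) and Ehd2 (right) on the vertical axes against the summed FPKM of 8 endothelial genes on the horizontal axes, 1 point per mouse (blue circles controls, red triangles CKOs). CKO 2 is the highest mouse on every axis, at 55.6 FPKM for the endothelial sum, 53.8 FPKM for Cav1 and 9.87 FPKM for Ehd2, and the points of the other CKOs mostly lie among those of the controls, apart from CKO 4 with 23.5 FPKM for Cav1, below the lowest control at 26.6 FPKM. Without Cdh5 and Pecam1 the endothelial sum would be higher in control 3 than in CKO 2.

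Ptrf was 10.7 ± 1.83 FPKM in the control group and 11.9 ± 1.65 FPKM in the CKO group (SD, n = 6 each). Its ranges of 8.73 to 13.4 and 10.2 to 14.5 FPKM overlapped, with the highest control value in control 1 and the highest CKO value in CKO 2. The log2 fold change was 0.16 ± 0.126 (SE, limma, adjusted p = 0.474), 0.23 without control 1 and -0.024 after median-ratio scaling. Ehd1, which acts in recycling of membrane from endosomes, was 3.12 ± 0.595 FPKM in the control group and 3.43 ± 0.482 FPKM in the CKO group (SD, n = 6 each). Its ranges of 2.63 to 4.15 and 2.66 to 4.02 FPKM nearly coincided (log2 fold change 0.14 ± 0.137, SE, limma, adjusted p = 0.585), and its log2 fold change was 0.10 without control 1 and -0.044 after median-ratio scaling.

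**Figure D3:**
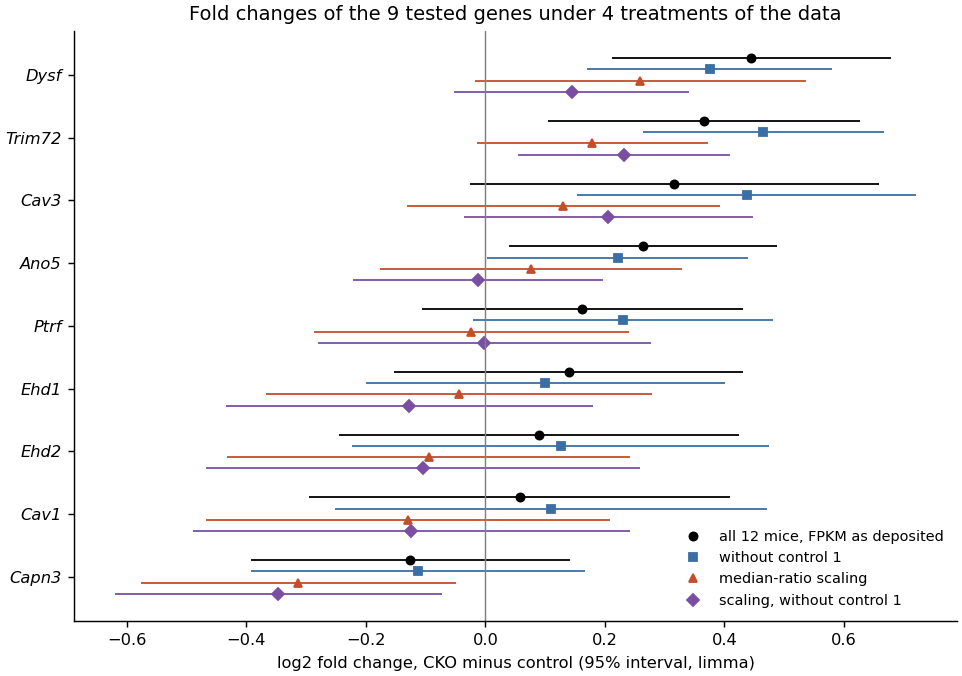
Log2 fold change of CKO minus control (horizontal axis) with its 95% interval from limma for the 9 tested genes, with all 12 mice and FPKM as deposited (black circles), without control 1 (blue squares), after median-ratio scaling (red triangles) and with both (purple diamonds). Only the intervals of Dysf, Trim72 and Ano5 exclude 0 in the first treatment, scaling moves every gene to the left, and the Trim72 interval alone stays above 0 when scaling and omission of control 1 are combined.

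Since FPKM is scaled to transcript length, levels can be set in order between genes. In controls the order of average FPKM was Cav1, Ano5, Capn3, Trim72, Ptrf, Cav3, Dysf, Ehd2, Ehd1 and Fer1l5. In this order the ranges of neighbors overlapped except between Ano5 and Capn3, between Ehd2 and Ehd1, and between Ehd1 and Fer1l5. In CKOs Trim72 and Capn3 changed places, at 19.2 ± 1.72 and 15.4 ± 3.35 FPKM (SD, n = 6), and their ranges still overlapped. Capn3 was above Trim72 in 5 of 6 controls, and Trim72 above Capn3 in 5 of 6 CKOs. The exceptions were control 1 and CKO 5.

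The whole-step reading that worked for Fer1l5 also worked for Trim72, Cav3, Ptrf, Ehd1 and Ehd2, and shows how many fragments stand behind their FPKM. Trim72 rested on 391 to 958 fragments per mouse, Ptrf on 332 to 649, Ehd2 on 166 to 378, Cav3 on 104 to 278 and Ehd1 on 90 to 234. These are the smallest whole numbers that fit all 12 values. Counting error alone is then at most 5.06% of a Trim72 value and 10.5% of an Ehd1 value, while the SD between controls was 20.7% and 19.1% of the mean. Without control 1 the SD between controls was 1.30 FPKM on a mean of 13.9 FPKM for Trim72, and 0.620 FPKM on a mean of 3.21 FPKM for Ehd1. For Dysf, Ano5, Cav1 and Capn3 no set of whole numbers up to 3000 fragments in control 1 was found, and the fragments behind them are unknown.

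The related genes of the pathway were read from lists written by hand. Among 8 genes of the caveolar coat and its partners, none passed an unadjusted p below 0.05 in limma with all mice, in either direction, and the median log2 fold change was 0.19. The smallest p were those of Ehd3 (log2 fold change 0.54, adjusted p = 0.339) and Pacsin3 (0.20, adjusted p = 0.390). The other coat genes Sdpr, Prkcdbp and Murc and the caveolin Cav2 overlapped between the groups, with Murc, the cavin typical of muscle, at 14.3 to 25.2 FPKM in controls and 19.4 to 37.2 FPKM in CKOs. Without control 1, 1 of the 8, Ehd4, passed the unadjusted threshold (log2 fold change 0.38, limma, adjusted p = 0.0698), beside 27.0% of all genes. After median-ratio scaling the median of the 8 genes was 0.0063.

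Of 9 other anoctamin genes 5 were tested, with 3 higher and 0 lower at an unadjusted p below 0.05, 1 of which passed adjustment, beside 18.1%, 1.76% and 2.02% of all tested genes. The latter was Ano6, a scramblase that exposes phosphatidylserine on the cell surface. Ano6 ran from 5.55 through a median of 5.83 to 6.96 FPKM in controls and from 7.67 through a median of 8.37 to 10.2 FPKM in CKOs. All CKOs lay above all controls (log2 fold change 0.51 ± 0.0991, SE, limma, adjusted p = 0.0151), as they did for 2.23% of all tested genes. Without control 1 the log2 fold change of Ano6 was 0.56 (limma, adjusted p = 0.00455), and Ano10 passed as well, beside 8.40% of all tested genes.

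Among 15 other calpain genes 9 were tested, with 5 higher and 0 lower before adjustment and 2 higher after it, beside the same shares of all genes. These 2 were Capn1, a calpain found in most tissues, and Capns1, the small subunit shared by the Capn1 and Capn2 enzymes. Capn1 ran from 5.34 through a median of 5.58 to 5.99 FPKM in controls and from 6.76 through a median of 8.58 to 10.1 FPKM in CKOs, so the groups did not overlap (log2 fold change 0.56 ± 0.111, SE, limma, adjusted p = 0.0177). All CKOs lay above all controls for 2.23% of all tested genes. Capns1 was at 15.6 to 25.6 FPKM in controls and 23.5 to 28.4 FPKM in CKOs, with control 1 the only control above 20.9 FPKM (log2 fold change 0.47 ± 0.115, SE, limma, adjusted p = 0.0460). Without control 1 the log2 fold changes of Capn1 and Capns1 were 0.58 and 0.55. In that comparison 4 calpain genes passed the adjusted threshold, with Capn2 and Capn6 added, beside 8.40% of all tested genes. Capn3, by comparison, had a log2 fold change of -0.13, and the difference between Capn3 and Capn1 was not tested.

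Of 20 genes for dysferlin partners and other resealing factors, 3 were higher and 0 lower before adjustment, beside 18.1% and 1.76% of all tested genes, and 1 was higher after it, beside 2.02%. The one past the adjusted threshold was Anxa6, an annexin of the repair cap, at 16.4 to 28.2 FPKM in controls and 26.4 to 35.4 FPKM in CKOs (log2 fold change 0.55 ± 0.130, SE, limma, adjusted p = 0.0408). Control 1 had 28.2 FPKM and the other controls at most 22.9 FPKM, so that the other controls lay below all CKOs, as they did for 6.10% of all tested genes. Without control 1, 4 genes of this list passed, namely Ahnak, Anxa1, Anxa2 and Anxa6. Anxa1 and Anxa2 were at 16.8 and 13.7 FPKM in control 1, above every other mouse. After median-ratio scaling none of the genes in these lists passed the adjusted threshold in limma, beside 0.764% of all tested genes higher and 0.709% lower. At an unadjusted p below 0.05, 6 were higher and 3 lower, beside 6.62% and 7.44% of all tested genes. The lists held 8 caveolar, 1 ferlin, 5 anoctamin, 9 calpain and 20 dysferlin-partner or resealing genes that were tested. Over the lists together, which the plot of related genes shows, 4 genes were higher at the adjusted threshold with all mice and 10 without control 1, while the share of all tested genes went from 2.02% to 8.40%.

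**Figure D4:**
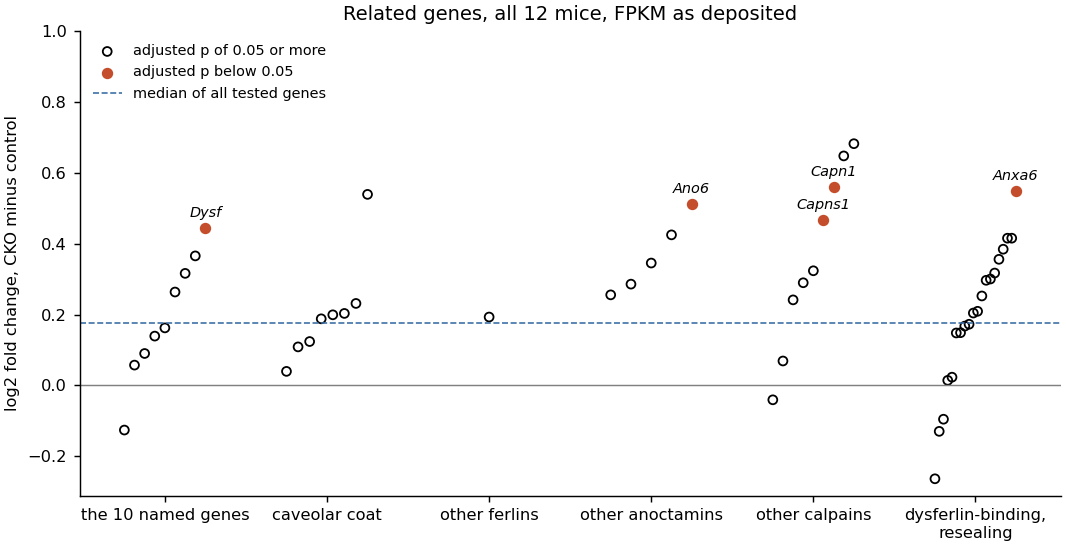
Log2 fold change of CKO minus control (vertical axis) for each tested gene of 6 lists (horizontal axis), with genes past an adjusted p of 0.05 filled in red and named and the median of all tested genes as a dashed line. The named genes lie between 0.45 and 0.56, the dashed line is at 0.18, and the open points lie on both sides of it, with 2 calpain genes that did not pass above the named ones.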

How the data were processed

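RNA-seq of the tibialis anterior was analysed for 6 control and 6 CKO mice, 1 library each. The authors depleted ribosomal RNA, trimmed adapters, aligned reads with bowtie2 and TopHat2 2.0.10 with few mismatches allowed, and discarded reads with several genomic positions. The deposited FPKM values were made by the authors with Cufflinks 2.1.1 on mm9, per the submitters' processing notes. The gene annotation is not given in the sources used here. Discarding multiply placed reads can lower genes with close copies. In each table of 23950 rows, 27 rows had a date in place of a symbol and were left out. The authors tested genes with DESeq, which was not repeated on FPKM.

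The groups were compared with limma 3.58.1 in R 4.3.3 (intensity trend, no covariate) on log2(FPKM + 0.1), for the 12695 genes that reached 0.1 FPKM in 6 or more samples. Benjamini-Hochberg adjustment covered all genes tested. Exact permutation tests were two-sided on the mean log2 value. The members and lists were chosen with earlier results of these data known. All members are named. From each related list the genes past the adjusted threshold are named, or the 2 with the smallest p, and a few others were named after their values were seen. Alternatives tried were no filter, a stricter filter of 1 FPKM, a pseudocount of 1, quantile normalization, median-ratio scaling, the replicate number as a block, limma without the trend, sample weights and each sample left out. Scaling together with omission of control 1 was added after seeing the data. The code was tested on simulated data. Each mouse is 1 sample, and litters are not given. Overlaps between genes come from GENCODE M21 (GRCm38), matched by symbol for all 10 members (Ptrf as Cavin1). No coordinates were carried over from mm9. Relative depth came from the steps of FPKM below 0.15, and fragments were accepted within 0.02 of whole numbers. The number of reads per library is unknown, and counting errors cover sampling of fragments only.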

Additional observations from a re-analysis of the deposited data

Results flagged for a closer look

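In 20 groups of 6 values (10 genes in controls and in CKOs), 2 held a mouse far from the rest, where chance flags about 5% of groups. Cav1 was 53.8 FPKM in CKO 2, with a gap to the next CKO of 0.660 of the group's range. Ehd2 was 9.87 FPKM in CKO 2, with a gap of 0.673 of the range. Both gaps exceeded the 95% limit of Dixon's test. Both flags fall on 1 mouse, and the cause was not tested.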

How the results depend on the processing

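The 9 fold changes of members were computed under 21 alternatives, and 158 of 189 values kept their direction and their side of the adjusted threshold. Of the others 14 reversed, in Cav1, Ptrf, Ehd1, Ehd2 and Ano5, all genes without a call. Whether replicate numbers pair the mice was not settled: 2 of 6 same-number pairs had a correlation of deviations over 0.1, and 2 of 6 controls correlated best with their own number. The mean correlation was 0.0404 over same-number pairs and -0.00879 over the other pairs. With the replicate number as a block, Dysf kept its log2 fold change of 0.45 but had an adjusted p of 0.0643, so 0 members were called. The cause was not tested for any change given here.

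With median-ratio scaling the log2 fold change was 0.26 for Dysf, -0.13 for Cav1, -0.024 for Ptrf, -0.044 for Ehd1 and -0.095 for Ehd2. It called 0 members higher at either threshold and 1 lower unadjusted. Of the related genes it called 6 higher and 3 lower unadjusted and 0 higher adjusted, and of all genes 841 higher and 944 lower unadjusted and 97 and 90 adjusted. With quantile normalization the values were 0.30 for Dysf, -0.037 for Cav1, -0.046 for Ehd1 and -0.069 for Ehd2, with 2 members higher unadjusted and 0 adjusted. It called 6 related genes higher and 3 lower unadjusted and 2 higher adjusted, and of all genes 810 higher and 837 lower unadjusted and 101 and 68 adjusted. Scaling without control 1 gave 0.14 for Dysf, -0.12 for Cav1, -0.0017 for Ptrf, -0.13 for Ehd1, -0.10 for Ehd2 and -0.012 for Ano5. It called 1 member higher and 1 lower unadjusted and 0 higher adjusted, 9 related genes higher and 4 lower unadjusted and 1 higher adjusted, and of all genes 1100 higher and 1146 lower unadjusted and 180 and 182 adjusted. Sample weights called 2 members (Trim72 at 0.45), 19 related genes unadjusted and 10 adjusted, and 3704 genes higher unadjusted, 1400 higher adjusted and 115 lower adjusted. Without a filter Dysf stayed at 0.45 (adjusted p = 0.0549), 0 members and 2 related genes passed, and 170 genes were higher. Without the trend Dysf stayed at 0.45 (adjusted p = 0.0802), and 0 members and 2 related genes passed.

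Leaving out each mouse in turn gave 0 to 2 members higher at the adjusted threshold. Dysf ran from 0.38 to 0.51, Trim72 from 0.30 to 0.46, Cav1 from -0.095 to 0.14 and Ehd2 from -0.051 to 0.15. Limma's adjusted p of Dysf ran from 0.0275 to 0.113 and passed in 3 of 12 omissions. That of Trim72 ran from 0.0106 to 0.244 and passed only without control 1. Related genes called higher were 8 to 20 unadjusted and 1 to 10 adjusted. All genes called were 84 to 1067 higher and 18 to 69 lower, the highest of both without control 1 and the lowest without CKO 1. A pseudocount of 1 and a filter at 1 FPKM changed no call of a member.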
